A study of Rattus norvegicus with 4 samples.

Results

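Hspe1, Tcp1 and Cct6a encode chaperonin proteins, and their transcripts were followed in the livers of ciprofibrate-treated rats. The 3 genes were taken by their symbols in the annotation of the array's probes, out of 3102 genes listed with 1 symbol. They matched 6 spots, which are 3 cDNA clones printed at 2 places each, and all 6 spots carried a measured ratio on all 4 arrays. The genes were chosen by their ratios in this same comparison, so their values are given as a description, with no test.

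The treated animals were female Fischer rats given ciprofibrate at 50 mg per kg of body weight a day for 60 days. Ciprofibrate lowers blood lipids as an agonist of PPARα, a nuclear receptor whose activation makes peroxisomes multiply in rodent liver. Total liver RNA of 1 treated rat was hybridised on each of 4 2-colour cDNA arrays together with total RNA pooled from 5 control rats, so the pool is 1 control sample and the spread between control rats is not in any value. Every array is labelled as 1 of 4 treated animals, without a number for the animal. The arrays were counted as 4 separate animals, and if any animal was shared, fewer than 4 animals stand behind the values. The p-values rest on the spread between arrays, moderated by limma over all clones. With 1 array for each animal, that spread mixes differences between animals with technical error. The strain, sex and control pool are common to all 4 arrays.

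Chaperonins are barrel-shaped machines that take an unfolded protein into a closed chamber and release it after folding, driven by ATP. Hspe1 is Hsp10, the small ring that caps the mitochondrial chaperonin Hsp60, the product of Hspd1. Tcp1 and Cct6a are subunits of CCT, also called TRiC, the chaperonin of the cytosol, whose rings are built from several related subunits and whose best known clients are actin and tubulin. Hspe1 and Hspd1 are classic heat shock genes and lie head to head in mammals.

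The upstream sequences of the 3 genes are shown so that the heat shock motifs before Hspe1, a classic heat shock gene, can be seen beside the CCT genes. The 250 bases before each RefSeq gene start are printed 5′ to 3′ on the strand of the gene, in the GRCr8 assembly. Capitals mark paired heat shock motifs (TTCNNGAA or GAANNTTC, each its own reverse complement) and CCAAT boxes (CCAAT, or ATTGG on the other strand).
Hspe1, chr9:64084077-64084326, plus strand: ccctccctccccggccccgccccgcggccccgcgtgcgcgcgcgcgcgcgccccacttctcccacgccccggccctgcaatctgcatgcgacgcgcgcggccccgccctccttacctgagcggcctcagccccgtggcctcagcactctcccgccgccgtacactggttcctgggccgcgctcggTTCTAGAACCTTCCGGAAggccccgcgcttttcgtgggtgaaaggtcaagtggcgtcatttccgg
Tcp1, chr1:50384528-50384777, minus strand: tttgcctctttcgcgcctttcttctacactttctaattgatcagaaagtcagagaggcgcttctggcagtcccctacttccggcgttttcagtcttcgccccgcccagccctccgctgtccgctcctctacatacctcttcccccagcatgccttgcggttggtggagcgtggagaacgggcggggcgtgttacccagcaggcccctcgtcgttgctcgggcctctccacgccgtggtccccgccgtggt
Cct6a, chr12:32519073-32519322, minus strand: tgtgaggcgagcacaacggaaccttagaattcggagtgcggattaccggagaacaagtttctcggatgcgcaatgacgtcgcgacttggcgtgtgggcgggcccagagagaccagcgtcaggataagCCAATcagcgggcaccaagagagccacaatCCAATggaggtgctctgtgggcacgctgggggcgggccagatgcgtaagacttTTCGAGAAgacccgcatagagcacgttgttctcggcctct

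The capitals in the Hspe1 sequence are a run of 3 overlapping matches. TTCTAGAA lay 65 to 58 bases before the start, GAACCTTC 60 to 53 bases and TTCCGGAA 55 to 48 bases. The Cct6a sequence held 1 such match, TTCGAGAA, 40 to 33 bases before the start, and 2 CCAAT boxes at 123 to 119 and 93 to 89 bases. The Tcp1 sequence held neither motif in this window. Of 33469 RefSeq upstream windows of the same length, 7.48% held TTCNNGAA, 7.23% held GAANNTTC, 13.5% held either and 34.0% held a CCAAT box. The GC box GGGCGG, or CCGCCC on the other strand, was present 2 times in each of the 3 sequences and in 30.5% of all windows. AGGTCA, the hexamer that nuclear receptors such as PPARα bind in pairs (TGACCT on the other strand), occurred 1 time, in Hspe1, 23 to 18 bases before the start, and in 14.1% of all windows. All 3 sequences had more CG steps than the median of 5.0 over all windows, with 35 in Hspe1 and 21 each in Tcp1 and Cct6a. Of all windows 97.4% held fewer than Hspe1, and 84.9% held fewer than Tcp1 or Cct6a. A match is a description of letters and says nothing of binding in these livers. The windows of Hspe1 and Hspd1, which extend 50 bases past each start, shared 211 bases on opposite strands, and Hspd1 was not analysed here, as no spot was listed for it.

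Values are log2 ratios, with each array centred on its median over clones. Channel 1 is labelled as treated liver and channel 2 as liver of controls. The dyes are not stated, and with them the direction of the deposited ratio. A list of 33 textbook fibrate-induced genes had 14 measured under 1 symbol, and 10 of them had a positive mean ratio. Positive ratios are taken here to mean a likely higher level in treated livers, on the channel order and on this majority, which was 9 of 14 without replicate 1 or with no centring and 10 of 14 without any other array. The majority is a weak guide, since the median mean ratio over all clones was -0.01, and Hadhb and Cpt2 were positive at only 0.01 and 0.05. Of the 14 genes limma called 5 positive and 1 negative (adjusted p under 0.05), against 13.6% and 15.0% of all clones. With the position surface removed, described below, 3 were called positive and 1 negative, against 2.85% and 11.3%. The negative call was Acot2 with no surface removed (-0.39, limma adjusted p = 0.0237). It was Cpt1a with the surface removed (-0.35, limma adjusted p = 0.0315). The 4 arrays correlated positively with each other over the tested clones (r between 0.468 and 0.758), and replicate 2 stood furthest from the rest (r between 0.468 and 0.532).

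Hspe1, the mitochondrial Hsp10, had log2 ratios of 0.76, 0.63, 0.84 and 0.89 on replicates 1 to 4. All 4 arrays were well above 0, with replicate 2 the lowest. The mean was 0.78 ± 0.12 (SD, n = 4), a linear ratio of 1.72 and the third highest of 2707 clones with 1 symbol. Between 96.2% and 99.6% of the tested clones had a lower ratio on each array.

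Tcp1, the CCT subunit also called CCT-alpha, had log2 ratios of 0.46, 0.69, 0.80 and 0.74 on replicates 1 to 4. Replicate 1 was the lowest, and the other 3 arrays lay close together. The mean was 0.67 ± 0.15 (SD, n = 4), a linear ratio of 1.59 and rank 14 from the top. Hspe1 exceeded Tcp1 by 0.11 ± 0.15 (log2, SD, n = 4) and on 3 of 4 arrays, a difference smaller than its own spread. In the annotation Tcp1 overlaps Acat2l1, for which no spot was listed, and whether RNA of that gene binds the Tcp1 spots was not tested.

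Cct6a, the zeta subunit of the same CCT ring, lay on the other side. Its log2 ratios were -0.45, -0.79, -0.48 and -0.75 on replicates 1 to 4, all below 0, with replicates 2 and 4 the lowest. The mean was -0.62 ± 0.18 (SD, n = 4), a 1.53-fold difference with a linear ratio of 0.652 and rank 190 from the bottom. Between 8.14% and 12.8% of the tested clones had a lower ratio on each array, so on these ratios Cct6a was less extreme among negative clones than Hspe1 or Tcp1 was among positive ones. These ranks do not allow for the position of the spots on the slide. With a position surface removed, as described below, the mean of Cct6a was -0.73, larger in size than 0.40 for Hspe1 and 0.29 for Tcp1. On every array both Hspe1 and Tcp1 exceeded Cct6a. Tcp1 exceeded Cct6a by 0.91, 1.48, 1.28 and 1.49 on replicates 1 to 4, a mean of 1.29 ± 0.27 (log2, SD, n = 4). The 2 CCT subunits thus had opposite signs on 4 of 4 arrays, a pattern that the choice of these genes fixed.

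**Figure D1:**
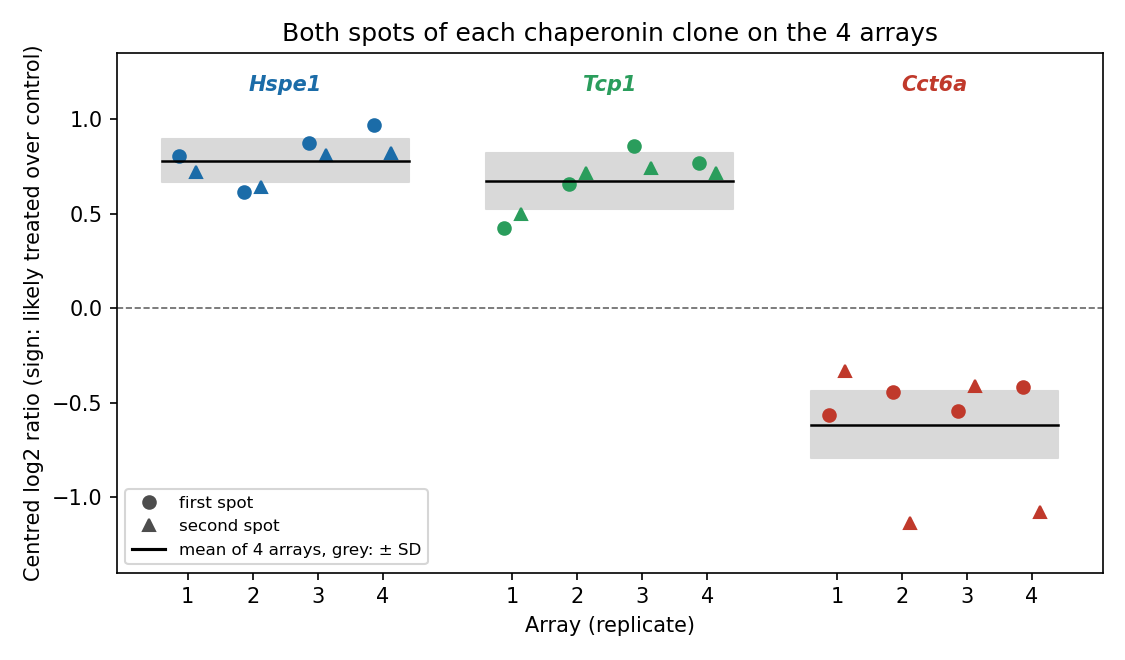
Centred log2 ratio (vertical axis) of the first (circle) and the second (triangle) spot of Hspe1, Tcp1 and Cct6a on each of the 4 arrays (horizontal axis), with the mean of the 4 arrays as a black line and ± SD in grey. Hspe1 and Tcp1 lie above 0 with their spots close together, while Cct6a lies below 0 and its second spot drops to -1.14 and -1.08 on replicates 2 and 4.

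The 2 spots of a clone share their cDNA, their RNA and the array and differ in their place on the slide. Their difference therefore shows only the error between spots of 1 array. Both spots of each chaperonin lay in the same block, so their closeness does not cover differences between blocks. The spots of Hspe1 differed by 0.08, 0.03, 0.06 and 0.15 (log2) on replicates 1 to 4, and those of Tcp1 by 0.08, 0.06, 0.11 and 0.05. Over the 1591 clones with 2 spots measured on all arrays, the median difference was between 0.08 and 0.09 on each array, so both genes were close to the usual level. Cct6a was not. Its first spot read -0.57, -0.44, -0.54 and -0.42 on replicates 1 to 4, and its second spot -0.34, -1.14, -0.42 and -1.08.

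On replicates 2 and 4 the Cct6a spots were apart by 0.69 and 0.66, more than 97.7% and 97.3% of the clones on those arrays. On replicates 1 and 3 they were apart by 0.23 and 0.13. The first spot alone gave -0.49 ± 0.07 and the second alone -0.74 ± 0.43 (SD, n = 4 each). The sign was the same in all 8 readings, while the size of the Cct6a ratio on replicates 2 and 4 depended on which spot was read.

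**Figure D2:**
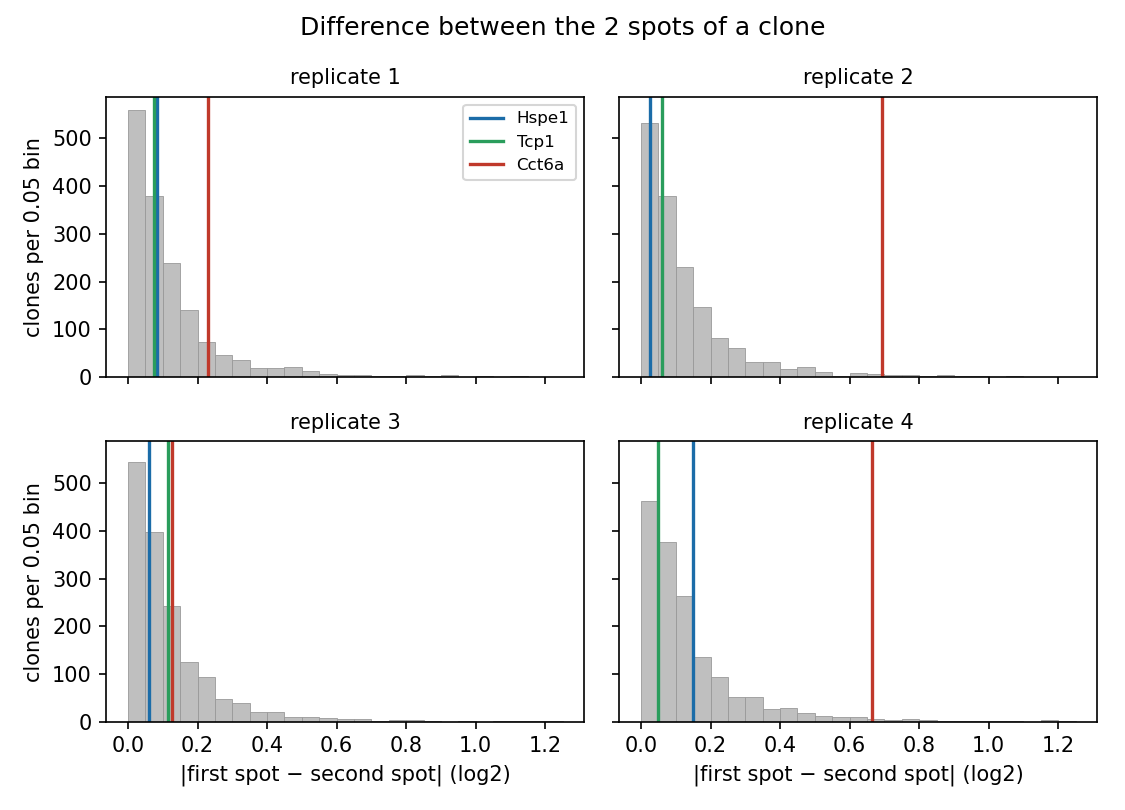
Histograms, 1 panel for each array, of the absolute log2 difference between the 2 spots of a clone (horizontal axis, bins of 0.05) against the number of clones (vertical axis) for 1591 clones, with Hspe1, Tcp1 and Cct6a as coloured lines. Between 6 and 13 clones an array lie beyond the axis. Cct6a stands in the tail on replicates 2 and 4, and Hspe1 and Tcp1 lie in the bulk on every array.

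The position of a spot on the slide, read from the row order as 8 blocks of 31 by 31 spots in 2 columns, moved with the ratios of the whole table. Of 4704 clones tested 638 were called positive (13.6%, limma adjusted p under 0.05), and 95.0% of these lay in the left column, against 50.7% of all clones tested. All 6 chaperonin spots lay in that column, Tcp1 in block 1, Hspe1 in block 3 and Cct6a in block 7. The median of block 1 was 0.19, -0.02, 0.43 and 0.35 on replicates 1 to 4, that of block 3 was 0.16, 0.15, 0.30 and 0.33, and that of block 7 was 0.12, 0.07, 0.10 and 0.36. The negative ratio of Cct6a was thus measured among spots whose median was positive.

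Each spot was set against its neighbours, the measured spots of the 5 by 5 square around it. Hspe1 was above every one of its 18 neighbours on replicates 1, 3 and 4 at both places, and on replicate 2 it was below 3 and 2 of them. The first Hspe1 spot exceeded its neighbours' median by 0.51, 0.48, 0.35 and 0.35 on replicates 1 to 4, and the second by 0.53, 0.76, 0.35 and 0.23. Its excess over the surroundings was smaller than its ratio in every reading but that of the second spot on replicate 2.

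For Tcp1 the excess over the surroundings varied more between arrays. The first spot exceeded its neighbours' median by 0.17, 1.18, 0.35 and 0.16 on replicates 1 to 4, and the second by 0.19, 0.95, 0.35 and 0.14. Averaged over the arrays the excess was 0.47 ± 0.48 and 0.41 ± 0.37 at the Tcp1 spots (SD, n = 4), close to the 0.42 ± 0.08 and 0.47 ± 0.23 of Hspe1. It was largest on replicate 2, where the neighbours' medians were -0.52 and -0.24. On replicate 4 those medians were 0.60 and 0.58, close to the Tcp1 readings of 0.77 and 0.72. Of 23 or 24 neighbours, 6, 2, 6 and 0 were above the first Tcp1 spot on replicates 1 to 4. Above the second Tcp1 spot were 5, 1, 3 and 4 of its 16 neighbours.

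Cct6a differed from its neighbours by more than its own ratio at the first spot on replicates 1, 2 and 4, and at the second spot on replicates 1, 3 and 4. The first spot minus its neighbours' median was -0.72, -0.62, -0.51 and -0.63 on replicates 1 to 4. At the second spot the differences were -0.48, -1.12, -0.50 and -1.59. At most 5 neighbours were below a Cct6a spot on any array.

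**Figure D3:**
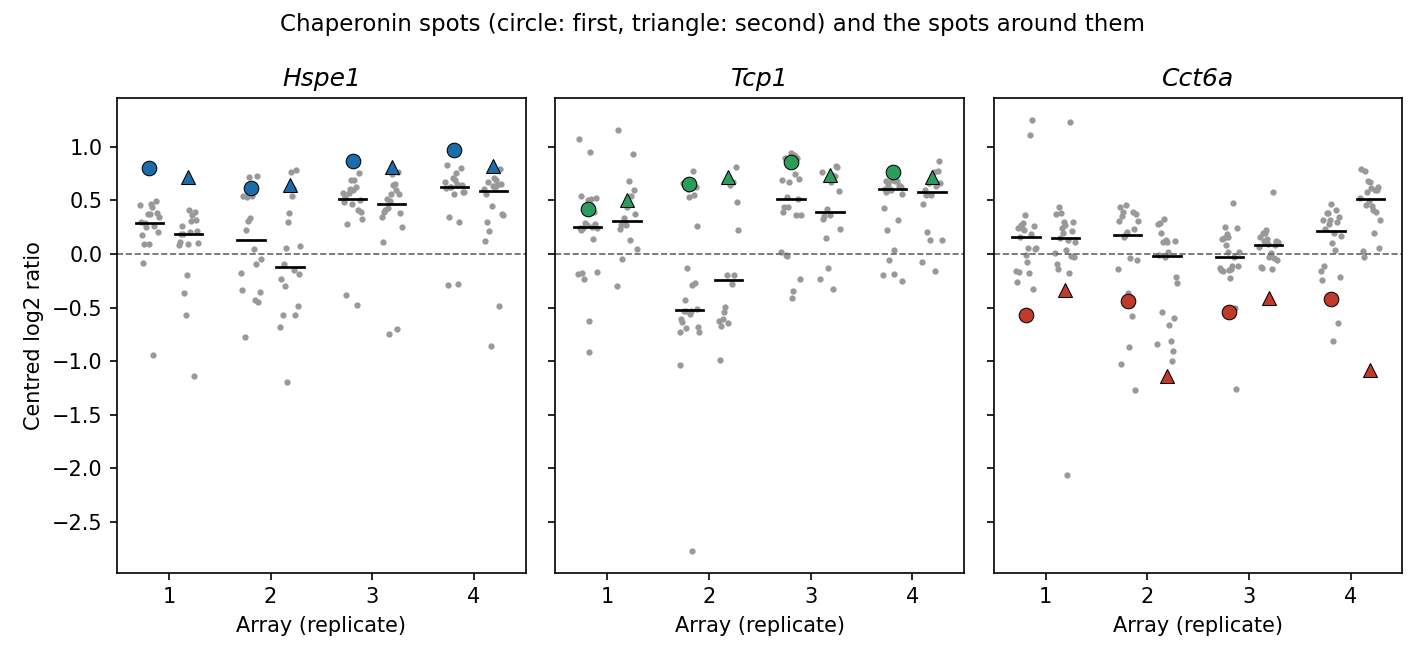
Centred log2 ratio (vertical axis) of each chaperonin spot (coloured circle for the first, triangle for the second) and of the spots in the 5 by 5 square around it (grey points, median as a black line) on the 4 arrays (horizontal axis). Hspe1 sits above nearly all its neighbours, Tcp1 sits well above its neighbours' median on replicate 2 and near it on replicate 4, and Cct6a sits below its neighbours' median on every array.

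A smooth surface over the spot positions was also subtracted from each array. Hspe1 was then at 0.50, 0.47, 0.31 and 0.33 on replicates 1 to 4 with a mean of 0.40 ± 0.10 (SD, n = 4), against 0.78 with no surface removed. Tcp1 was at 0.17, 0.61, 0.20 and 0.16, a mean of 0.29 ± 0.22, and without replicate 2 it was at 0.18 ± 0.02 (SD, n = 3). Cct6a was at -0.57, -0.74, -0.53 and -1.09, a mean of -0.73 ± 0.26. Its first and second spots were then at -0.48 and -1.01 on replicate 2 and at -0.65 and -1.53 on replicate 4. The size on those arrays again depended on the spot. No array of any of the 3 genes changed sign. With the median of each printing block subtracted in place of the surface the means were 0.55 ± 0.05 for Hspe1, 0.43 ± 0.19 for Tcp1 and -0.78 ± 0.26 for Cct6a (SD, n = 4). The part of position in the deposited ratios was not tested beyond these values.

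**Figure D4:**
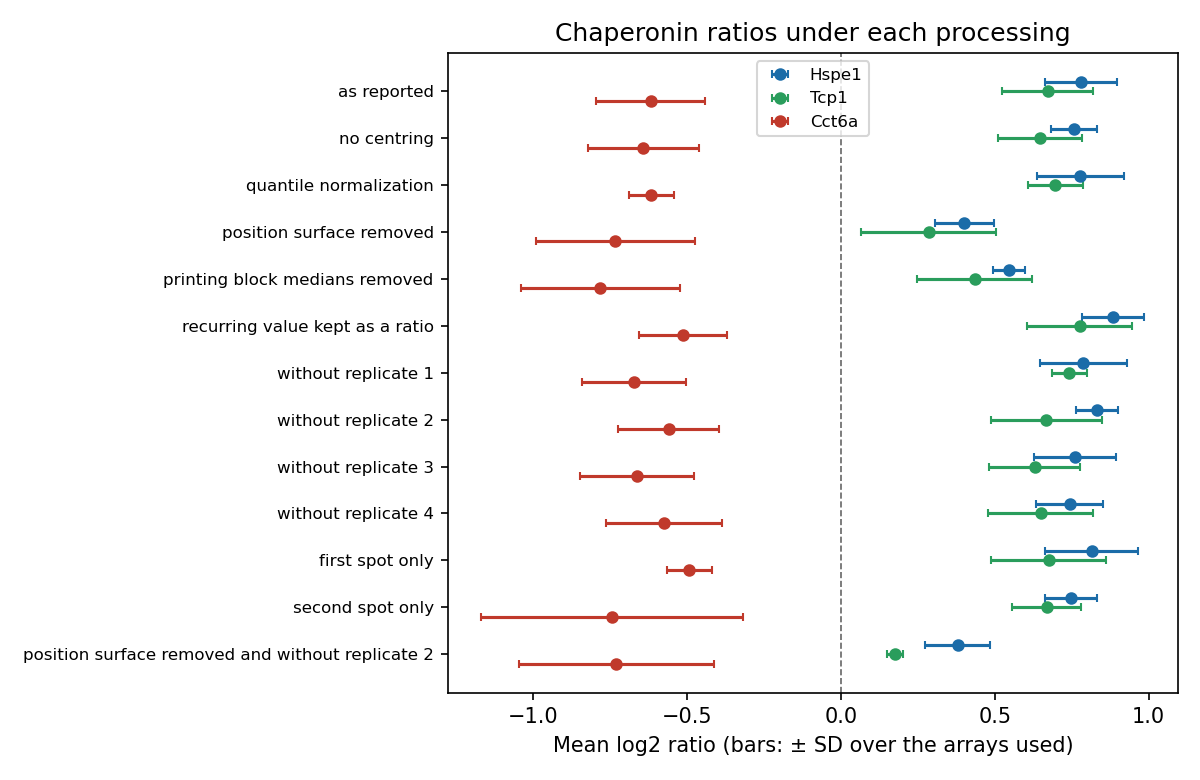
Mean log2 ratio (horizontal axis, bars ± SD over the arrays used) of Hspe1, Tcp1 and Cct6a under each processing (vertical axis). The signs stay the same throughout, and Hspe1 and Tcp1 are lowest with the position surface removed, at 0.40 and 0.29 over 4 arrays and at 0.38 and 0.18 without replicate 2.

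The genes around the chaperonins come from 10 lists of chaperones, cofactors and clients. Their clones were tested with limma on the mean ratio against 0, with Benjamini-Hochberg adjustment over all 4704 clones and a threshold of 0.05, called positive or negative by sign. Over all clones 13.6% were called positive and 15.0% negative. Apart from Hspe1, Tcp1 and Cct6a, 38 clones of 37 list genes were measured, and 4 were called positive, 5 negative and 29 were not called. Their median mean ratio was 0.06, against -0.01 over all clones, and it was -0.042 with the position surface removed, 0.092 without replicate 2 and 0.0087 without replicate 3. With the position surface removed 2.85% of all clones were called positive and 11.3% negative, and of the 38 clones 1 was positive and 3 negative. Without replicates 1, 2, 3 and 4 in turn the positive calls among them numbered 3, 8, 1 and 1 and the negative calls 3, 7, 3 and 3. Over all clones the positive calls then numbered 308, 872, 99 and 134 and the negative calls 388, 895, 323 and 354. These were out of 4717, 4718, 4720 and 4736 clones tested. The positive calls over all 4 arrays with no surface removed, Hspa1l, Canx, Timm44 and Actc1, lay in the left column. Of the negative calls Pdcl3, Txndc9, Cdc37 and Hspb3 lay in the right column and Acta2 in the left.

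CCT itself could be read only through Tcp1 and Cct6a, since no clone was listed under 1 symbol for the other 7 subunit genes, which were not analysed here. Of the other mitochondrial chaperones and proteases 3 genes were measured, all of the mitochondrial Hsp70 system, and none was called. Hspa9, the mitochondrial Hsp70, was at 0.07 ± 0.09 (SD, n = 4). Grpel1, its nucleotide exchange factor, was at 0.17 ± 0.26, and Hscb, a J-protein of iron-sulfur cluster assembly, at -0.06 ± 0.42. The lowest limma adjusted p of the 3 was 0.323. With the surface removed Hspa9 was at -0.03 ± 0.08, Grpel1 at 0.19 ± 0.20 and Hscb at 0.22 ± 0.23, so the signs of Hspa9 and Hscb turned, and again none was called.

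The CCT cofactors measured were both negative calls. Pdcl3, a phosducin-like protein that binds CCT, had log2 ratios of -1.16, -1.14, -1.22 and -1.31 on replicates 1 to 4. The 4 arrays were nearly equal, with a mean of -1.21 ± 0.08 (SD, n = 4, limma adjusted p = 0.00038), the lowest mean of any chaperone list clone. Pdcl3 was printed at 1 spot, so no second spot can be set against its readings. It remained a negative call with the position surface removed, at -1.10 ± 0.08. Txndc9, another phosducin-like CCT partner, was at -0.28, -0.38, -0.48 and -1.32, so replicate 4 gave much of its mean of -0.61 ± 0.48 (limma adjusted p = 0.0352). Its call ended without replicate 4 (-0.38, limma adjusted p = 0.0918), without replicate 1 or 3, and with the surface removed (-0.40, limma adjusted p = 0.111).

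CCT clients differed among themselves. The smooth muscle actin Acta2 was at -0.33, -0.98, -0.56 and -0.58 on replicates 1 to 4, a mean of -0.61 ± 0.27 (SD, n = 4, limma adjusted p = 0.0137). The cardiac actin Actc1 was at 0.38, 0.86, 0.72 and 0.59, a mean of 0.64 ± 0.20 (limma adjusted p = 0.00894). Acta2 remained a negative call with the surface removed, at -0.998 ± 0.27, while the call of Actc1 ended there (0.30, limma adjusted p = 0.109). Acta2 is also on the list of stellate cell markers. The other 3 client clones were not called. Actin genes are near-identical in their coding sequence, and a cDNA spot may take up transcripts of several of them.

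Among the cytosolic chaperones Cdc37, the Hsp90 partner that loads kinases, was negative at -0.82, -0.59, -0.63 and -1.05 on replicates 1 to 4, a mean of -0.77 ± 0.21 (SD, n = 4, limma adjusted p = 0.00533), and at -0.75 ± 0.23 with the surface removed, where it was again called. Of 6 clones of the Hsp70 system 1 was called, the Hsp70 family gene Hspa1l at 0.39 ± 0.24, just inside the threshold (limma adjusted p = 0.0442). Of 3 small heat shock protein clones 1 was called, Hspb3, printed at 1 spot, at -0.44 ± 0.29 (limma adjusted p = 0.0387). Both calls ended with the surface removed, at 0.01 and -0.16, and without replicate 1, 3 or 4. The clones of Hsbp1, a small protein that binds heat shock factor, were at 0.33 ± 0.22 and 0.24 ± 0.09 and were not called (limma adjusted p = 0.0626 and 0.0925), and the first was called without replicate 2 (0.43, limma adjusted p = 0.0138).

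In the endoplasmic reticulum 1 of 8 chaperone clones was called, the lectin chaperone Canx, printed at 1 spot, at 0.45 ± 0.21 (SD, n = 4, limma adjusted p = 0.0243). In mitochondrial protein import 1 of 7 was called, Timm44, which ties Hspa9 to the inner membrane channel, at 0.46 ± 0.16 (limma adjusted p = 0.019). Both calls ended with the surface removed (0.23 and 0.15), without replicate 3 and without replicate 4. The clone just outside the threshold was the import chaperone Timm10, at 0.29 ± 0.13 (limma adjusted p = 0.0607). The positive call that appeared with the surface removed was Pmpcb, a subunit of the peptidase that removes import signals, at 0.38 ± 0.20 (limma adjusted p = 0.0491), against 0.35 ± 0.25 with no surface removed (limma adjusted p = 0.0618). It was picked out after its values were seen.

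**Figure D5:**
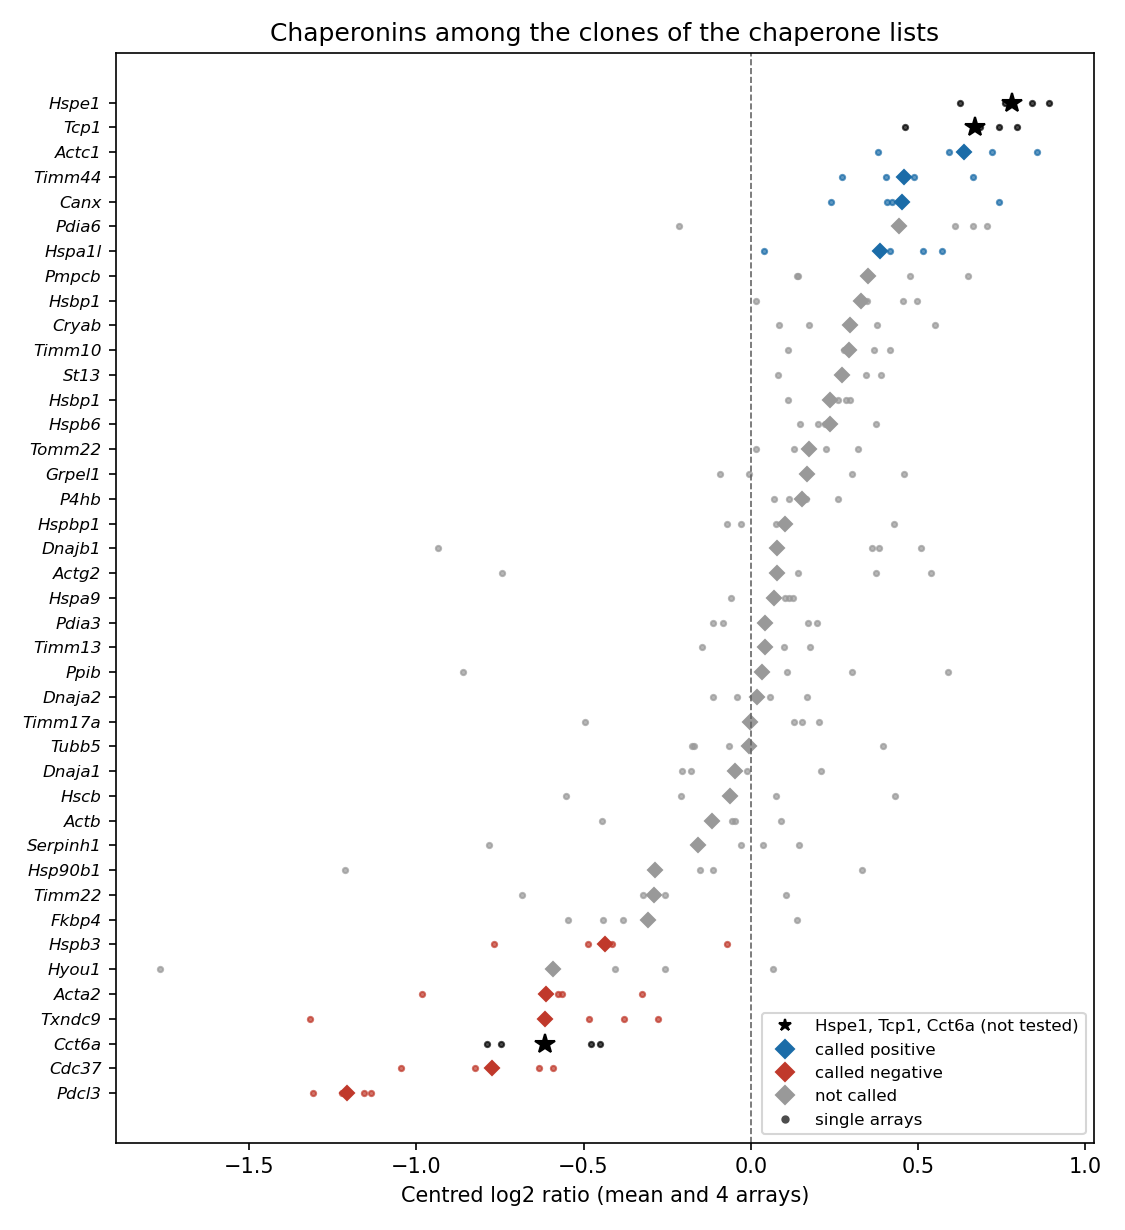
Centred log2 ratio (horizontal axis) of the 3 chaperonins (black stars) and 38 clones of the chaperone lists (vertical axis), with the mean as a large symbol and single arrays as small points; colours mark limma calls. Hspe1 and Tcp1 have the highest means at 0.78 and 0.67, and Pdcl3, Cdc37 and Cct6a the lowest.

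The profiles most like each chaperonin were sought among the other 2706 clones with 1 symbol, by the Euclidean distance over the 4 arrays. Nearest to Hspe1 were the glycolytic genes Aldoa and Ldha, at distances of 0.22 and 0.25, and Ech1, a peroxisomal and mitochondrial isomerase of fatty acid oxidation, at 0.26. Ech1 was printed in block 3, like Hspe1, and Aldoa and Ldha in block 1, all in the left column. Nearest to Tcp1 were Cyth2, an exchange factor for small GTPases, the mast cell chymase Cma1 and Srpx, each at 0.08 and each printed in block 1, like Tcp1. Nearest to Cct6a were Bcat1, a cytosolic branched-chain aminotransferase, at 0.18, Txn2, the mitochondrial thioredoxin, at 0.19, and the 14-3-3 protein gene Ywhaq at 0.21. These 3 lay in blocks 2 and 8, not in that of Cct6a. A likeness over 4 arrays that share a control pool is a description only.

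A ratio on a spot does not show whether a transcript was abundant, so the labelled tissue could not be checked against marker levels. In whole liver a ratio also cannot tell fewer cells of a type from less RNA per cell. Of 27 clones of cell type markers 5 were called positive and 8 negative, against 13.6% and 15.0% of all clones, and with the surface removed 0 were positive and 6 negative. Without replicates 1, 2, 3 and 4 in turn the positive calls among them numbered 1, 6, 1 and 1 and the negative calls 5, 9, 4 and 4. Over all clones the positive calls then numbered 308, 872, 99 and 134 and the negative calls 388, 895, 323 and 354. These were out of 4717, 4718, 4720 and 4736 clones tested. Hepatocyte markers were negative in 3 of 10 clones and positive in 0, with means between -0.69 and 0.58 and a median of -0.50. Without replicate 2 that median was -0.18, with 1 positive and 3 negative calls, and without replicate 3 or 4, or with the surface removed, 1 negative call was left. Kupffer cell and leukocyte markers were negative in 2 of 3 clones, and 1 of these calls ended without replicate 1, 3 or 4. Stellate cell and fibroblast markers were positive in 3 and negative in 2 of 9 clones, and with the surface removed 0 were positive and 2 negative. The negative calls were Acta2 and a Col1a2 clone with no surface removed, and Acta2 and Lum with it removed. Lum was at 0.09 with no surface removed and at -0.28 with it removed. Clones of Col1a2 went opposite ways, with a negative call at -0.58 in the right column (limma adjusted p = 0.0278) and a positive call at 0.39 in the left (limma adjusted p = 0.0297). In the other lists 1 of 2 endothelial clones and the 1 cholangiocyte clone were positive, and 1 of 2 red blood cell clones was negative. The part of cell composition in the chaperonin ratios was not tested.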

How the data were processed

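Liver RNA of ciprofibrate-treated rats and of a control pool was measured on 4 2-colour cDNA arrays. The authors deposited 1 value for each of 7688 spots, taken as a log10 ratio. Read this way, 99.987% to 100% of the linear ratios on each array were whole thousandths, within 0.02 of a thousandth. The sources used here do not give the background correction, the normalization or the dyes. No depth exists for such values, and the number of arrays limits the precision. On each array 1 value recurred in 1171 to 1189 spots and was set missing.

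Ratios were turned to log2, spots of a listed clone were averaged, and the median over clones was subtracted from each array. The mean ratio of each of 4704 clones was tested against 0 with limma 3.58.1 in R 4.3.3 (lmFit, eBayes, Benjamini-Hochberg adjustment). The fit was first run on simulated independent noise with added shifts. That noise held no position pattern, so this check cannot vouch for calls that follow position. The control pool is 1 control sample. Probe names came from GEO's platform annotation: 5252 spots were listed, 5169 with 1 symbol, of which 5140 were updated through RefSeq. The print layout was inferred from the row order, and the position surface was a loess of span 0.05. The genes named by rule were the 3 chaperonins, every measured CCT subunit, mitochondrial chaperone and CCT cofactor, in each other list the called genes (up to 4 by absolute mean, or the 2 with the largest absolute mean where none was called), the list clones just inside and outside the threshold, and the 3 clones nearest to each chaperonin. The members and lists were chosen with earlier results of these data known.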

Additional observations from a re-analysis of the deposited data

Results flagged for a closer look

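In 4 of the 38 chaperone list clones and in 1 of the 6 chaperonin spots, 1 array stood apart from the other 3, which chance gives in about 1 of 20 groups. Over all 4704 clones 401 (8.52%) had 1 array apart, and it was replicate 2 in 283 of them (70.6%).

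The second spot of Tcp1 stood apart on replicate 1, at 0.50 against 0.72, 0.74 and 0.72 on replicates 2 to 4. Dnajb1, an Hsp40 co-chaperone, was at -0.94 on replicate 2 and at 0.38, 0.51 and 0.36 on the others. Pdia6, a disulfide isomerase of the endoplasmic reticulum, was at -0.21 on replicate 2 and at 0.61, 0.71 and 0.66 on the others. Timm17a, a subunit of the inner membrane import channel, was at -0.50 on replicate 2 and at 0.15, 0.20 and 0.13 on the others. These 3 clones were not called, and without replicate 2 limma called Dnajb1 (0.42, adjusted p = 0.0148) and Pdia6 (0.66, adjusted p = 0.00496) but not Timm17a (0.16, adjusted p = 0.145). Hspa9 was at -0.059 on replicate 3 and at 0.11, 0.10 and 0.13 on the others.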

How the results depend on the processing

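Hspe1, Tcp1 and Cct6a kept their signs under every setting run. Leaving out 1 array gave 0.74 to 0.83 for Hspe1, 0.63 to 0.74 for Tcp1 and -0.67 to -0.56 for Cct6a. Hspe1 and Tcp1 moved by more than their SD with the position surface removed (0.40 and 0.29), with block medians removed (0.55 and 0.43), and with the surface removed and without replicate 2, chosen after seeing the data (0.38 and 0.18); Cct6a did not. The count of positive calls over all clones was 638, and came to 134 with the surface removed, 267 with block medians removed, 993 with the recurring value kept, 994 with spots as rows and 1148 with array weights, and 308, 872, 99 and 134 without replicates 1, 2, 3 and 4 in turn. The count of negative calls was 706, and came to 531 with the surface removed, 462 with the recurring value kept and 1211 with array weights, and 388, 895, 323 and 354 without replicates 1, 2, 3 and 4 in turn. In the chaperone lists the 4 positive calls of 38 became 1 with the surface removed, 8 with quantile scaling and 12 with array weights. They were 8 of 62 rows with spots as rows, 12 of 40 clones with the recurring value kept, and 1 to 8 without 1 array. The 5 negative calls became 3 with the surface or block medians removed, 8 with array weights, and 3 to 7 without 1 array. They were 7 of 62 rows with spots as rows and 3 of 40 clones with the recurring value kept. Over all clones 810 were positive with quantile scaling. Rows tested over all clones were 6370 with spots as rows and 5674 with the recurring value kept, in place of 4704. No paired analysis was possible because each array already pairs a treated rat with the control pool. The cause of these shifts was not tested.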
